A study of Mus musculus with 6 samples.

Results

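The cytosolic ribosomal protein genes encode the protein parts of the ribosome that translates nuclear messenger RNAs. They were chosen by name and by a minimum of reads, with earlier results of these data known. The rule took symbols built from Rpl or Rps and a number, together with Rpsa, Rplp0, Rplp1 and Rplp2. It asked for at least 600 reads over the 6 libraries and left out named pseudogenes. The rule gave 80 genes of the 32285 in the count table, 48 of the large subunit and 32 of the small subunit. It named 83 genes in all. The other 3 were under the minimum: Rpl3l with 99 reads, Rpl39l with 11 and Rpl10l with 0. The members with the lowest totals were Rps27l with 2518 reads and Rpl22l1 with 3854, so that no gene lay close to the minimum on either side.

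The large subunit joins amino acids, and the small subunit decodes the messenger RNA. Cells make the ribosomal proteins in matched amounts, and their messenger RNAs begin with a run of C and T called the TOP tract, through which mTOR signalling controls their translation. Oxygen deprivation is a known brake on mTOR signalling, by way of Ddit4 among others, and protein synthesis is one of the large energy costs of a cell.

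Messenger RNA was measured in retinas of C57BL/6J pups at postnatal day 18 (PN18). All pups had oxygen-induced retinopathy (OIR): with their mothers they spent 5 days in 75% O2 from PN8, which removes central retinal capillaries, and returned to room air at PN13. The OIR-CIH group (n = 3) then had chronic intermittent hypoxia for 10 h a day, as 266 cycles of 135 s between 20.95% and 5% O2. The OIR-Norm group (n = 3) had the same gas flow with O2 held constant. No group without OIR was analysed here, so that the contrast is that of intermittent hypoxia within OIR. Each library is described as 1 eye. All 6 libraries held both the X-inactivation RNA Xist (298 to 1653 CPM) and the Y-linked Ddx3y (21.2 to 65.0 CPM), and how many pups gave RNA to 1 library is open, so that n counts libraries.

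The libraries held 26289905 to 38010151 counted reads, and the members took 299958 to 548409 of them. Levels are given as CPM, the reads of a gene relative to the library total, scaled with TMM factors that correct for library composition. Sag, the gene of rod arrestin and a defining retinal marker, lay between 3634 and 5089 CPM in all 6. OIR-Norm replicate 2 stood apart. Its 6 lens markers, among them the crystallin genes Cryaa and Cryba1, summed to 464.8 CPM, against 21.0 and 26.7 CPM in the other OIR-Norm libraries and 18.1 to 76.0 CPM in OIR-CIH, and every one of the 6 was highest in that library. Its rod markers, such as Sag, Gnat1 and Nrl, had the lowest sum of the 6 libraries, at 18483 CPM over 6 genes against 20681 to 24541 CPM in the others. The same library was also low for the ribosomal protein genes, as described next.

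The TOP tract was looked for in the reference sequence, since it is the feature the family is known for beyond its name. RefSeq promoters of the GRCm38.p6 build were found for 60 of the 80 members, with 71 start sites. The windows below show 15 bases before and 15 bases from the annotated start, 5′ to 3′, so that base 16 is the start. Capitals mark the longest unbroken run of C and T. Rps21, Rplp2 and Rps7 are shown for their high fold changes, Rpl27a for its long run, Rps15a and Rpl41 for low fold changes, and Rps27, Rps27l, Rpl22, Rpl22l1 and Rpl7l1 as members of paralog pairs. Where a gene had several starts, the first is shown.
Rps21 (chr2:180257364-180257393, + strand): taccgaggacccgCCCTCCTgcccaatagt
Rplp2 (chr7:141447636-141447665, + strand): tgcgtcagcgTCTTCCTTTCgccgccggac
Rps7 (chr12:28635939-28635968, - strand): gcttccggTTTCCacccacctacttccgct
Rps27 (chr3:90213634-90213663, - strand): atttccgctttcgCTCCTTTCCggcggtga
Rpl27a (chr7:109519180-109519209, + strand): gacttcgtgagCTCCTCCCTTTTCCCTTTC
Rpl22l1 (chr3:28805493-28805522, + strand): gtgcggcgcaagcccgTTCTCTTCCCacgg
Rpl22 (chr4:152324421-152324450, + strand): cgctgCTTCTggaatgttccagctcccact
Rps15a (chr7:118116133-118116162, - strand): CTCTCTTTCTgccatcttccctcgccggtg
Rpl41 (chr10:128549154-128549183, - strand): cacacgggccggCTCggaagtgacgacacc
Rps27l (chr9:66946071-66946100, + strand): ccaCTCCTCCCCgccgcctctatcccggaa
Rpl7l1 (chr17:46782642-46782671, - strand): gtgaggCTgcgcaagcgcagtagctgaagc

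A run of at least 8 bases of C and T stood in the window at 28 of the 71 member starts (39.4%) and at 3943 of 32851 starts in the whole promoter table (12%). At least 5 unbroken bases of C and T from the annotated start onward, whether or not the run reached back before it, were present at 16 member starts (22.5%) and at 4.44% of all starts. The windows of Rps21, Rps27, Rplp2, Rpl27a and Rps15a hold such a stretch, in a run that reaches back before the start. In Rps15a this is not the run in capitals, which is longer and ends before the start. The window of Rpl7l1 holds no run of C and T over 2 bases, and that of Rpl41 none over 3. The run in Rps27l lies before the start, and the window of Rpl22 holds a run of only 5 bases. These starts are the annotated ones, and where the transcripts began in these retinas was not measured. A run of at least 8 anywhere in the window did not separate the fold changes. Whether the run began at the start was not used in this split, and 20 members had no window. The median log2 fold change was 0.23 for the 27 members with a run of at least 8 in any window and 0.23 for the 33 without one.

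The 300-base promoters, from 250 bases before to 50 after the start, were also searched on both strands for short factor motifs. The ETS motif CCGGAAG was present in 26 of the 71 member promoters (36.6%) and in 8.86% of all promoters. The YY1 motif AAGATGGC was present in 11.3% of member promoters and in 2.75% of all. The core of the hypoxia response element, ACGTG, was present in 35.2% of member promoters against 19.6% of all, and it is contained in the E-box CACGTG, which was present in 11.3% against 7.15%. The TATA motif TATAAA was present in 9.86% of member promoters and in 13.6% of all. These are matches of letters, not measured binding.

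The ribosomal protein genes as a group had slightly more RNA in OIR-CIH than in OIR-Norm retinas, with no single member past the test. Of the 80, 78 had a higher mean in OIR-CIH, and the 2 with a lower mean were the paralogs Rpl7l1 and Rps27l. The median log2 fold change was 0.23, or 16.9% more RNA, beside a median of -0.01 over all 20021 tested genes and of 0.02 over the 10544 with a mean of at least 10 CPM. The differences were close to each other: 61 members lay between 0.1 and 0.3, 13 above 0.3 and 6 below 0.1. The median standard error was 0.10, so that for a typical member the difference was a little over 2 standard errors.

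In the edgeR quasi-likelihood test across all genes, 0 of the 80 members were called at an adjusted p under 0.05 with an absolute log2 fold change over 0.5, beside 63 of all tested genes (0.315%). With no minimum fold change, 0 members passed an adjusted p of 0.05, beside 0.39% of all tested genes. The lowest adjusted p of a member was 0.0919, that of Rps21, and the highest 0.934. At an unadjusted p under 0.05 stood 41 members (51.2%), all higher in OIR-CIH, where 6.3% of all tested genes and 8.63% of those with at least 10 CPM stood on that side. A log2 fold change above 0 was found for 97.5% of the members, for 49.1% of all tested genes and for 55.1% of those with at least 10 CPM. For 22 members (27.5%) all 3 OIR-CIH libraries lay above all 3 OIR-Norm libraries, as they did for 9.12% of all tested genes and 11.9% of those with at least 10 CPM. For the other 58 the groups overlapped. DESeq2, run on the same genes, gave 2 members with an adjusted p under 0.05, Rps14 and Rps21, both under the minimum fold change of 0.5. Members are not independent of each other, so these counts describe the list and are no test of it.

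**Figure D1:**
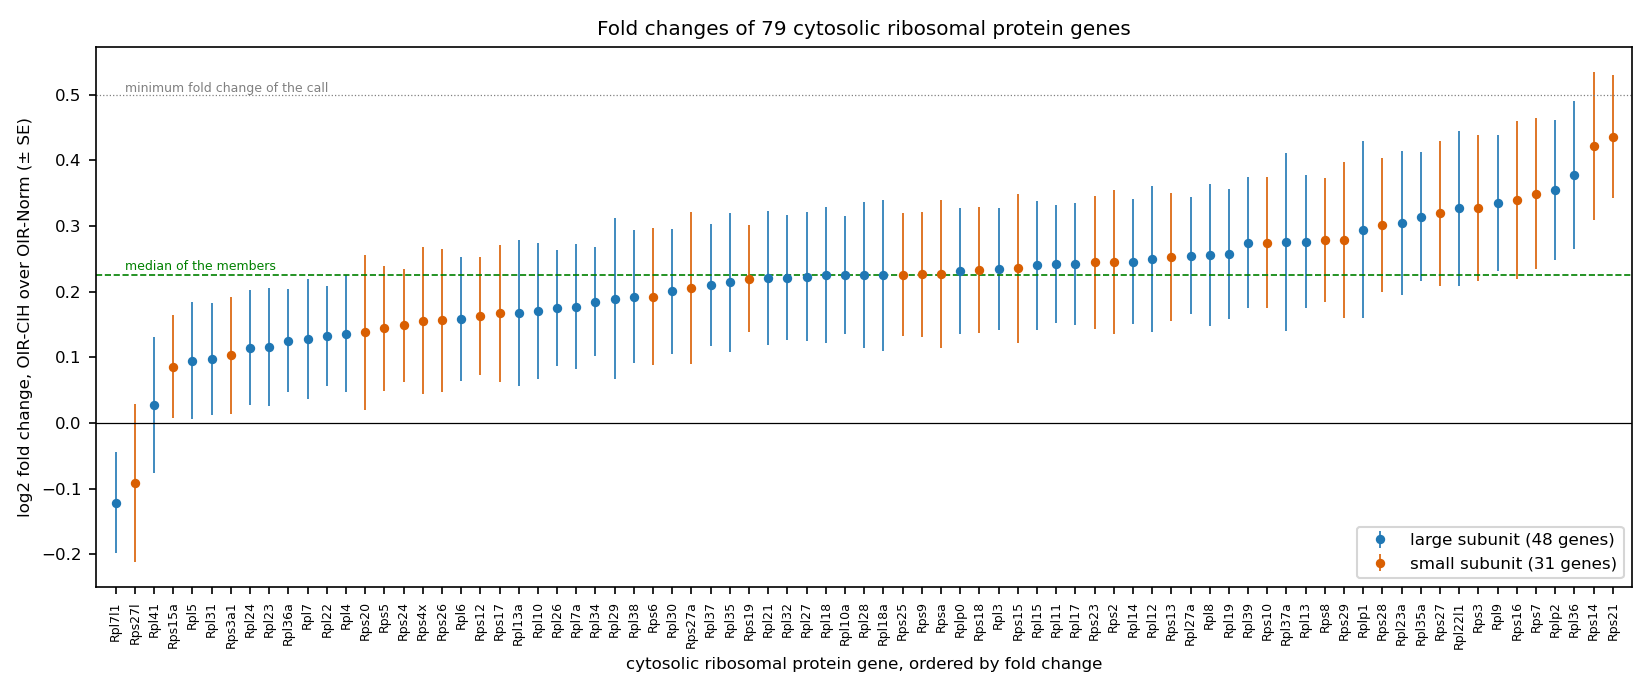
Log2 fold change (OIR-CIH over OIR-Norm, 3 libraries each) with its standard error for 79 of the 80 genes, ordered from lowest to highest and coloured by subunit. Only Rpl7l1 and Rps27l lie below 0, all points lie under the minimum of 0.5, and both subunits are spread along the whole order.

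The members moved together from library to library. Their reads made up 1.40%, 1.35% and 1.44% of all counts in OIR-CIH replicates 1 to 3, and 1.32%, 1.08% and 1.27% in OIR-Norm replicates 1 to 3. The groups did not overlap in this share, but the lowest OIR-CIH value was close to the highest OIR-Norm value. Summed and TMM-scaled, the members reached 14468, 13359 and 14513 CPM in OIR-CIH and 13547, 10522 and 12334 CPM in OIR-Norm, and here OIR-Norm replicate 1 lay above OIR-CIH replicate 2. The group means were 14113 ± 654 CPM in OIR-CIH and 12134 ± 1522 CPM in OIR-Norm (SD, n = 3), a ratio of 1.16.

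OIR-Norm replicate 2 was the lowest of the 6 libraries for 75 of the 80 members, with a median of -0.30 on the log2 scale against each gene's own mean. None of its 80 values lay above that mean. OIR-CIH replicate 3 was the highest library for 36 members and OIR-CIH replicate 1 for 28. The medians were 0.16 and 0.16 in OIR-CIH replicates 1 and 3, 0.01 in OIR-CIH replicate 2, 0.06 in OIR-Norm replicate 1 and -0.08 in OIR-Norm replicate 3. Within 1 library the members spread by an SD of only 0.07 to 0.10 around these values. Without OIR-Norm replicate 2 the median log2 fold change was 0.14, and 76 members had a higher mean in OIR-CIH. In that edgeR fit 11 members had an unadjusted p under 0.05, beside 1771 of all 19677 tested genes in either direction. With all 6 libraries these numbers were 41 members and 2682 of 20021 genes. The count of members whose groups did not overlap was not set beside these, since leaving out the lowest library cannot make groups overlap. The part of the lens RNA and the low rod RNA of that library in these values was not tested.

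**Figure D2:**
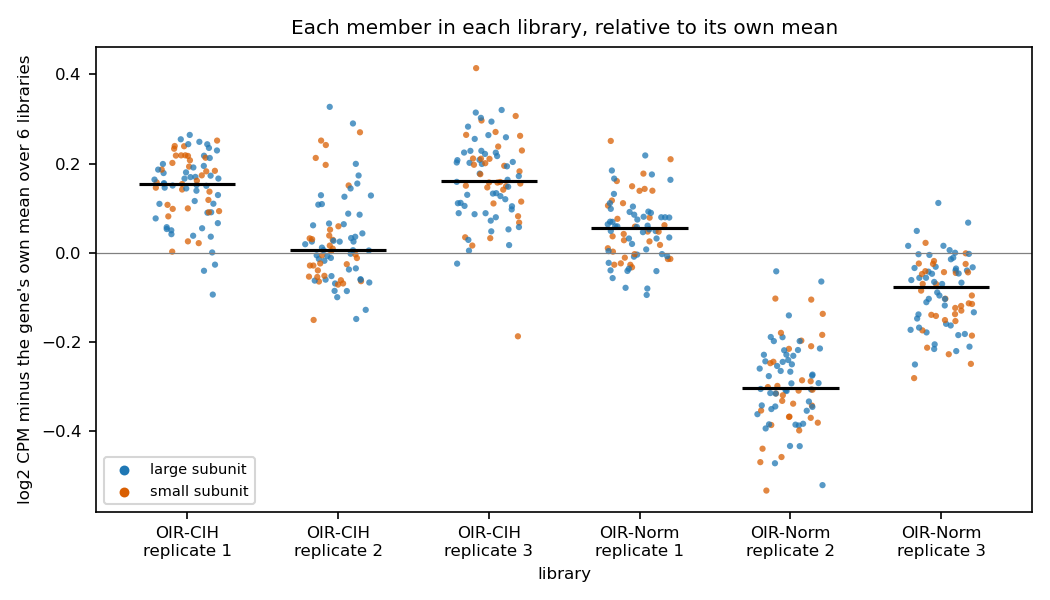
Log2 CPM of each member in each library minus the gene's own mean over the 6 libraries, with points coloured by subunit and a black bar at the median. The 80 points of OIR-Norm replicate 2 all lie below 0, around -0.30, and those of OIR-CIH replicates 1 and 3 lie mostly above 0.

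Both subunits took the same course. The large subunit had a median of 0.22 on the log2 scale, with 47 of 48 members higher in OIR-CIH, 24 of them at an unadjusted p under 0.05 and 13 whose groups did not overlap. For the small subunit it was 0.23, with 31 of 32 higher, 17 at an unadjusted p under 0.05 and 9 that did not overlap. Of all tested genes, 6.3% were higher at an unadjusted p under 0.05, and 9.12% were higher without overlap. The large subunit genes summed to 8373 ± 402 CPM in OIR-CIH and 7266 ± 875 CPM in OIR-Norm, and the small subunit genes to 5741 ± 259 and 4868 ± 647 CPM (SD, n = 3). The ratio of the large to the small subunit sum was 1.44, 1.45 and 1.48 in OIR-CIH and 1.47, 1.51 and 1.5 in OIR-Norm. These ratios overlapped between the groups, since OIR-CIH replicate 3 lay above OIR-Norm replicate 1.

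Neither length nor level ordered the fold changes. Across the 80 members, which are not independent replicates, Spearman's rho of the log2 fold change was -0.1 with coding length and -0.01 with the mean CPM. Coding lengths ran from 75 bases, in Rpl41, to 1257 bases, in Rpl4. The members lie on 19 chromosomes, with 14 of them on chromosome 7.

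Rps21, a small subunit protein, had the highest fold change of the 80. The Rps21 gene (ENSMUSG00000039001, chromosome 2) was at 97.0, 92.6 and 102 CPM in OIR-CIH and at 81.9, 63.8 and 70.2 CPM in OIR-Norm. All OIR-CIH libraries lay above all OIR-Norm libraries, by a log2 fold change of 0.44 ± 0.09 (SE, adjusted p = 0.0919). Rps14 (ENSMUSG00000024608, chromosome 18), a small subunit protein whose loss causes the anaemia of the 5q- syndrome in people, was at 317, 317 and 296 CPM in OIR-CIH and at 261, 184 and 249 CPM in OIR-Norm. The groups did not overlap, and the log2 fold change was 0.42 ± 0.11 (SE, adjusted p = 0.186). For Rpl36 (ENSMUSG00000057863, chromosome 17), of the large subunit, the OIR-CIH libraries were close together at 95.7, 97.1 and 98.2 CPM, and the OIR-Norm libraries were at 81.2, 58.9 and 83.7 CPM. Again the groups did not overlap, with a log2 fold change of 0.38 (adjusted p = 0.228).

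Rps7, a small subunit protein, was at 278, 284 and 241 CPM in OIR-CIH and at 243, 172 and 216 CPM in OIR-Norm. OIR-CIH replicate 3 lay just under OIR-Norm replicate 1, so that the groups overlapped, and the log2 fold change was 0.35 (adjusted p = 0.268). For all 4 of these genes, as for most members, OIR-Norm replicate 2 held the lowest value.

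**Figure D3:**
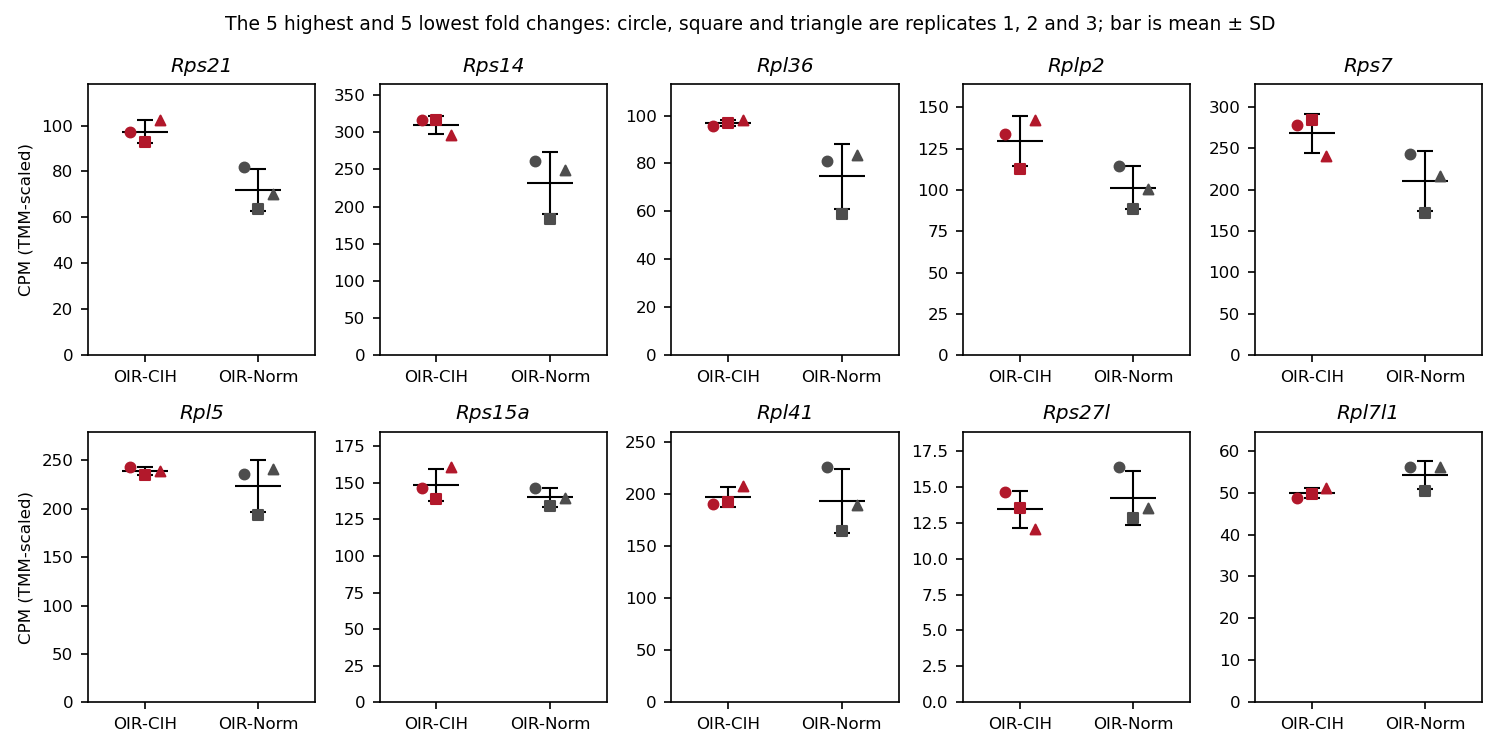
TMM-scaled CPM of the 5 members with the highest (upper row) and the 5 with the lowest (lower row) log2 fold changes, with 1 point a library and the mean ± SD of each group (n = 3). The groups are apart for Rps21, Rps14 and Rpl36 and overlap for the other 7.

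The stalk is the arm of the large subunit that recruits the elongation factors. Its 3 acidic proteins and their base, Rpl12, all stood at an unadjusted p under 0.05, with a median log2 fold change of 0.27, and for none of the 4 were the groups apart. Of all tested genes, 6.3% stood at such a p on that side. Rplp2 was at 134, 113 and 142 CPM in OIR-CIH and at 115, 88.8 and 101 CPM in OIR-Norm, with a log2 fold change of 0.36 (adjusted p = 0.228). OIR-CIH replicate 2 lay just under OIR-Norm replicate 1. Rplp1 was at 248, 226 and 275 CPM against 252, 161 and 198 CPM, with a log2 fold change of 0.29 (adjusted p = 0.371). Rplp0, which holds the other stalk proteins on the ribosome, was at 312, 295 and 333 CPM against 306, 238 and 257 CPM, with a log2 fold change of 0.23 (adjusted p = 0.339). Rpl12 was at 142, 152 and 151 CPM against 143, 100 and 131 CPM, with a log2 fold change of 0.25 (adjusted p = 0.358). In Rplp1 and Rpl12, OIR-Norm replicate 1 reached the level of the OIR-CIH libraries.

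Rpl5 and Rpl11 bind the 5S ribosomal RNA together, and outside the ribosome this particle restrains Mdm2 and so stabilises p53. Rpl11 was at 192, 187 and 180 CPM in OIR-CIH and at 167, 136 and 170 CPM in OIR-Norm. Its groups were apart, with a log2 fold change of 0.24 (adjusted p = 0.299). Rpl5 was at 243, 235 and 239 CPM against 236, 193 and 242 CPM, and its groups overlapped, with a log2 fold change of 0.10 (adjusted p = 0.68). Without OIR-Norm replicate 2 the difference in Rpl5 was -5.92e-05 on the log2 scale, so that for this gene the whole difference lay in that library.

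Rps6 is the small subunit protein that S6 kinase phosphorylates downstream of mTOR. Its RNA was at 133, 112 and 133 CPM in OIR-CIH and at 126, 96.1 and 108 CPM in OIR-Norm, a log2 fold change of 0.19 (adjusted p = 0.45). Rps27a is made as a fusion with ubiquitin and so supplies ubiquitin as well. It was at 291, 307 and 271 CPM against 295, 203 and 255 CPM, a log2 fold change of 0.21 (adjusted p = 0.467). In both genes the groups overlapped.

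Rpsa, a small subunit protein also known as the laminin receptor, was at 336, 290 and 340 CPM in OIR-CIH and at 321, 229 and 276 CPM in OIR-Norm, a log2 fold change of 0.23 (adjusted p = 0.406). Rpl38, which in mouse embryos is needed for the translation of Hox messenger RNAs, was at 56.9, 52.4 and 67.3 CPM against 56.8, 48.1 and 49.9 CPM, a log2 fold change of 0.19 (adjusted p = 0.44). The groups overlapped for both.

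Groups of members by place in the ribosome were all higher in OIR-CIH and had like medians. The 8 proteins at the exit tunnel and its rim, through which the new protein leaves, had a median log2 fold change of 0.23, and the groups were apart for 4 of them. The 14 proteins of the head of the small subunit had a median of 0.23, and 3 did not overlap. The 9 genes whose loss is linked to Diamond-Blackfan anaemia had a median of 0.22, and 5 did not overlap. In each of these groups, 0 members passed an adjusted p of 0.05 with edgeR, and 4, 8 and 5 stood at an unadjusted p under 0.05. With DESeq2, too, none of their members passed. Of all tested genes, 9.12% had all OIR-CIH libraries above all OIR-Norm libraries, and 6.3% were higher at an unadjusted p under 0.05.

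At the other end of the order were the paralogs Rpl7l1 and Rps27l. Rpl7l1 (ENSMUSG00000063888, chromosome 17) was at 48.6, 49.8 and 51.0 CPM in OIR-CIH and at 56.1, 50.4 and 56.1 CPM in OIR-Norm. OIR-Norm replicate 2 lay inside the OIR-CIH range, and the log2 fold change was -0.12 ± 0.08 (SE, adjusted p = 0.518). Rps27l (ENSMUSG00000036781, chromosome 9), a target of p53, was at 14.6, 13.5 and 12.1 CPM against 16.4, 12.8 and 13.5 CPM, with a log2 fold change of -0.09 (adjusted p = 0.78). It was at 0.02 without OIR-Norm replicate 1, so that its sign rests on that library.

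Rpl41, the smallest ribosomal protein, was at 191, 193 and 208 CPM in OIR-CIH and at 226, 164 and 190 CPM in OIR-Norm. The difference was 0.03 on the log2 scale (adjusted p = 0.934), and its sign turned to -0.02 without OIR-CIH replicate 3 and to -0.08 without OIR-Norm replicate 2. Rps15a, of the small subunit, was at 146, 139 and 161 CPM against 147, 134 and 140 CPM, a log2 fold change of 0.09 (adjusted p = 0.673). In both genes the values of the groups were interleaved.

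Several members have a paralog, a second gene for a closely related protein, so that the ratio of the pair within a library does not depend on how libraries are scaled. Rps27 itself was at 182, 195 and 178 CPM in OIR-CIH and at 174, 121 and 149 CPM in OIR-Norm, with a log2 fold change of 0.32 (adjusted p = 0.281). The log2 ratio of Rps27 to Rps27l was 3.64, 3.85 and 3.88 in OIR-CIH and 3.41, 3.24 and 3.47 in OIR-Norm. The groups were apart by 0.42 on the log2 scale, with an exact two-sided permutation p of 0.1, the smallest that 3 against 3 allows.

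Rpl7 was at 315, 276 and 315 CPM against 302, 246 and 281 CPM, with a log2 fold change of 0.13 (adjusted p = 0.576). Its log2 ratio to Rpl7l1 was 2.7, 2.47 and 2.63 in OIR-CIH and 2.43, 2.29 and 2.33 in OIR-Norm, apart by 0.25 (exact permutation p = 0.1). Rpl36a had a log2 ratio to Rpl36al of 1.60, 1.67 and 1.68 in OIR-CIH and of 1.43, 1.56 and 1.51 in OIR-Norm, apart by 0.15 (exact permutation p = 0.1). In these 3 pairs the conventional gene was higher relative to its paralog in every OIR-CIH library.

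Rpl22 and Rpl22l1 went the other way. Rpl22l1 was at 23.5, 26.2 and 20.9 CPM in OIR-CIH and at 21.6, 16.5 and 18.1 CPM in OIR-Norm, with a log2 fold change of 0.33 (adjusted p = 0.296), while that of Rpl22 was 0.13 (adjusted p = 0.482). The log2 ratio of Rpl22 to Rpl22l1 was 2.7, 2.48 and 2.86 in OIR-CIH and 2.73, 2.92 and 2.98 in OIR-Norm, and the groups overlapped (exact permutation p = 0.2). Over the 4 pairs tested, the adjusted p was 0.133 for the first 3 and 0.2 for Rpl22. None of the 4 ratios passed.

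**Figure D4:**
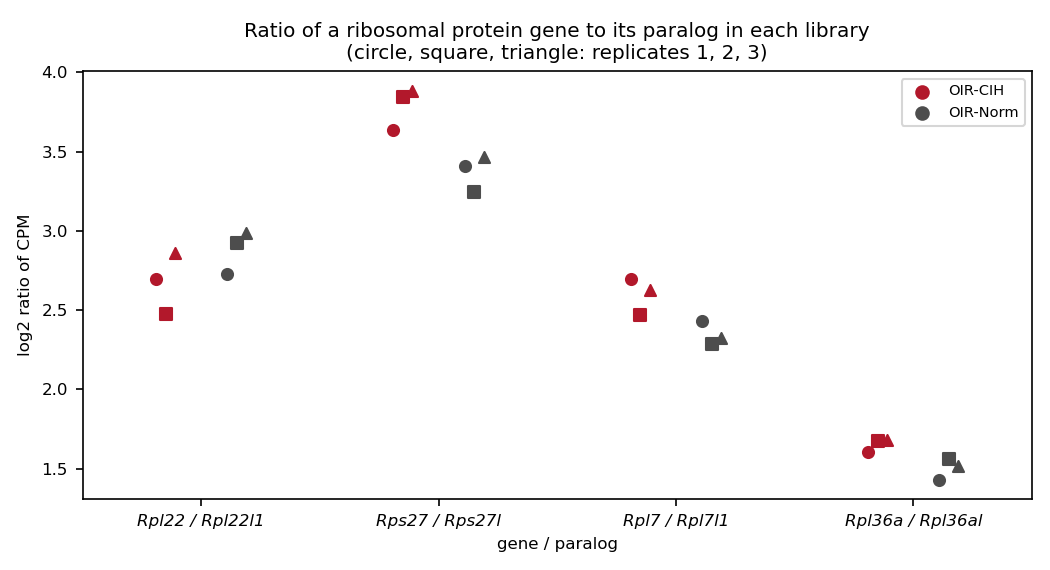
Log2 ratio of the CPM of a ribosomal protein gene to that of its paralog in each library, for 4 pairs, with OIR-CIH in red and OIR-Norm in grey. The groups are apart for the ratios to Rps27l, Rpl7l1 and Rpl36al, higher in OIR-CIH, and overlap for the ratio to Rpl22l1.

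The tissue-restricted paralogs were close to absent. Rpl10l, a testis form of Rpl10, had 0 reads in all 6 libraries, which allows up to 3 reads a library. Rpl39l had 0 to 6 reads a library, and Rpl3l, the form of striated muscle, had 8 to 27. Their conventional partners were in the main range. Rpl3, which lies near the catalytic centre, had a log2 fold change of 0.23 (adjusted p = 0.318), Rpl39, in the exit tunnel, of 0.27 (adjusted p = 0.296), and Rpl10, which joins the large subunit late in its assembly, of 0.17 (adjusted p = 0.499).

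Levels between genes were compared as CPM per kilobase of coding sequence. Ribosomal proteins are needed in about equal numbers, but their counted RNA levels were not equal: the median was 317 and the range 54.8 to 2602. Rpl41 stood first, and its coding sequence of 75 bases is far shorter than its transcript, so that its value per coding kilobase is inflated. After it came Rps29 at 898, Rps24 at 854, Rplp1 at 662 and Rps27 at 661. Their coding lengths were 168, 399, 342 and 252 bases, beside a member median of 454. For them, too, the length leaves out the noncoding part of the transcript, and how far this raises their values was not measured. The lowest 4 were Rps27l at 54.8, Rpl22l1 at 57.7, Rpl23a at 68.5 and Rpl7l1 at 70.4. So 3 of these 4 were paralogs, while Rpl23a is a standard part of each ribosome.

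Of the members at the ends of this order, Rps29 was at 175, 148 and 172 CPM in OIR-CIH and 167, 120 and 123 CPM in OIR-Norm (log2 fold change 0.28, adjusted p = 0.346). Rps24 was at 373, 354 and 348 CPM against 339, 286 and 345 CPM (log2 fold change 0.15, adjusted p = 0.479), and its groups were just apart. Rpl23a was at 38.1, 31.6 and 36.6 CPM against 31.2, 24.3 and 30.5 CPM (log2 fold change 0.30, adjusted p = 0.293), also apart. Ribosomal protein genes have many near-identical processed pseudogenes in the mouse genome, and reads that fit several places are not counted for any gene by the counter the study used. The level of each member is therefore uncertain, and a gene with a low value here need not be low in the cell. Pseudogenes named after Rpl or Rps genes numbered 5 in the table and held 0.0218% as many reads as the members. Pseudogenes under other names, or absent from the table, are not in this share, so it does not measure the reads that pseudogenes take.

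The genes around the ribosome were read from lists chosen with earlier results known. Some proteins sit on the ribosome or belong to its family but fall outside the naming rule. Rack1, a scaffold on the small subunit, was at 284, 280 and 286 CPM in OIR-CIH and at 260, 189 and 220 CPM in OIR-Norm. Its groups did not overlap, with a log2 fold change of 0.35 (adjusted p = 0.223). Fau, which carries a ribosomal protein fused to a ubiquitin-like protein, had a log2 fold change of 0.19 (adjusted p = 0.44), and Rpl36al of -0.03 (adjusted p = 0.931).

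The 78 mitochondrial ribosomal protein genes, which build the separate ribosome inside mitochondria, were centred on a log2 fold change of 0.12, with 68 higher in OIR-CIH and 13 at an unadjusted p under 0.05, all higher. Mrps16 was the first of these by p, with a log2 fold change of 0.34 (adjusted p = 0.284). Of all tested genes, 6.3% were higher at an unadjusted p under 0.05. The 16 elongation factors and other TOP messenger RNAs had a median of 0.10, with 14 higher. Among them Eif3h had a log2 fold change of 0.26 (adjusted p = 0.339). Both medians lay below that of the cytosolic ribosomal protein genes.

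The lists that act upstream had medians near 0. It was 0.06 for 25 initiation factors, -0.03 for 40 ribosome assembly factors, 0.02 for 15 genes of RNA polymerase I and Myc, and -0.05 for 20 genes of mTOR and TOP control. Within the last list, Ddit4, an inhibitor of mTOR complex 1 that hypoxia induces, was at 280, 221 and 233 CPM in OIR-CIH and at 190, 171 and 176 CPM in OIR-Norm. The groups did not overlap, and the log2 fold change was 0.45 ± 0.09 (SE, adjusted p = 0.0811). Larp4 went the other way, with a log2 fold change of -0.22 (adjusted p = 0.236). Larp4 binds poly(A) tails and stabilises messenger RNAs. The factor Eif3a, a core of the initiation factor complex eIF3, had a log2 fold change of -0.29 (adjusted p = 0.227), and Myc, a driver of ribosome production, of -0.67 (adjusted p = 0.353, at 1.26 to 3.89 CPM, with overlap). Mycl, of the same family, had the lower p and the other sign: it was at 5.49, 6.38 and 7.65 CPM in OIR-CIH and at 4.74, 3.12 and 5.25 CPM in OIR-Norm, with groups apart and a log2 fold change of 0.58 (adjusted p = 0.272). Over these lists together, 0 of 198 genes passed an adjusted p of 0.05 with edgeR, and 36 (18.2%) had an unadjusted p under 0.05, beside 13.4% of all tested genes in either direction. Of the 36, 25 were higher in OIR-CIH. DESeq2 gave 1, Ddit4.

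**Figure D5:**
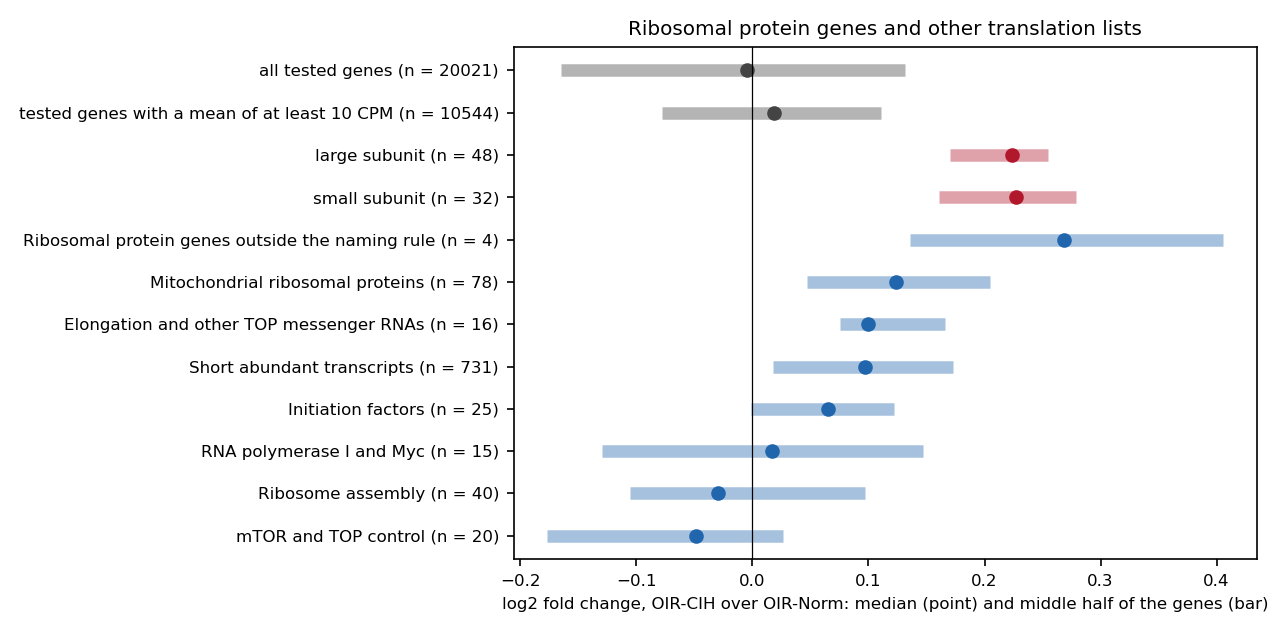
Median log2 fold change (point) and interquartile range of the genes (bar) for the 2 subunits, for all tested genes and for the other translation lists, OIR-CIH over OIR-Norm. The medians of the subunits, 0.22 and 0.23, lie above those of every list of more than 4 genes, and those of assembly and mTOR control lie just below 0.

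Ribosomal protein messenger RNAs are short and abundant, so other genes of that kind were read beside them. Of 731 genes with a coding sequence of at most 250 codons and a mean of at least 50 CPM, 574 were higher in OIR-CIH, and the median difference was 0.10 on the log2 scale. These genes were also lowest in OIR-Norm replicate 2, where their median was -0.14 against each gene's own mean, beside -0.30 for the members. The share of reads from mitochondrially encoded genes ran from 2.36% to 3.48% in OIR-CIH and from 2.45% to 3.26% in OIR-Norm, and the groups overlapped. The part of transcript length or RNA quality in the members' values was not tested.

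Among the cell types, the 3 genes listed as astrocyte markers were lower in OIR-CIH with no overlap, as were 1854 of all 20021 tested genes. The glial filament gene Gfap was at 61.5, 62.5 and 67.5 CPM against 158, 147 and 119 CPM (log2 fold change -1.15, adjusted p = 2e-04). Pdgfra had a log2 fold change of -0.46 (adjusted p = 0.206) and Pax2 of -0.52 (adjusted p = 0.359, at 1.10 to 1.93 CPM). Whether the Gfap RNA came from astrocytes or from other glia was not tested. Of the 9 microglia markers 8 had a log2 fold change below 0, and their sum was 98.9 to 116 CPM in OIR-CIH and 119 to 137 CPM in OIR-Norm. The 6 rod markers read here were all above 0, centred on 0.14 on the log2 scale, with sums of 21427 to 24541 CPM in OIR-CIH and 18483 to 24247 CPM in OIR-Norm. The pigment epithelium markers were split, with a median of 0.28 on the log2 scale. Of these 6 genes, 3 were higher in OIR-CIH, each at an unadjusted p under 0.05, beside 6.3% of all tested genes. The other 3 had log2 fold changes below 0: Pmel at -0.78, Best1 at -0.19 and Tyr at -0.04. Sums over the 6 were 316 to 454 CPM in OIR-CIH and 199 to 368 CPM in OIR-Norm. Ttr, a carrier of thyroid hormone and retinol, was at 216, 156 and 147 CPM against 134, 86.3 and 88.6 CPM, with groups apart (log2 fold change 0.75, adjusted p = 0.128). All 6 endothelial markers (median -0.21, sums of 255 to 289 and 262 to 326 CPM), all 4 pericyte and smooth muscle markers (median -0.49, sums of 78.3 to 123 and 88.4 to 206 CPM) and all 3 blood markers (median -0.51, sums of 49.6 to 66.6 and 48.4 to 103 CPM) had log2 fold changes below 0, and the upper end of each OIR-Norm range was OIR-Norm replicate 2. The medians were 0.16 for 5 amacrine, 0.14 for 5 cone, 0.07 for 5 Mueller glia, 0.03 for 5 ganglion cell and -0.01 for 5 bipolar markers. Each of these lists held markers of both signs. Groups were apart and lower in OIR-CIH for the cone gene Opn1mw (-0.30), the Mueller gene Aqp4 (-0.31) and the bipolar gene Trpm1 (-0.27). They were apart and higher for the Mueller gene Rlbp1 (0.34) and the amacrine gene Pax6 (0.16). Gfap aside, the lowest adjusted p among the markers given here was that of Ttr. The part of cell composition in the members' values was not tested. In whole retinas, fewer cells of a type and less RNA per cell cannot be told apart, and neither can a change in many cell types and a change in 1.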

How the data were processed

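Retinal total RNA (250 ng) was made into stranded, poly(A)-selected libraries, 3 OIR-CIH and 3 OIR-Norm. The authors aligned the reads with STAR 2.7.9a, counted reads per gene and deposited raw whole-number counts without normalization. The methods name Ensembl 105 and the submitters' processing notes GRCm38, which is another assembly, so that the build is not settled. The strand column kept is not given in the sources used here. Gene IDs were matched to GENCODE M21 symbols, and 127 of 32285 had none. The members and all lists were chosen with earlier results of these data known.

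Genes with 10 or more counts in all were tested with edgeR 4.0.16 (R 4.3.3), with TMM factors, glmQLFit and glmQLFTest, group as the only term and Benjamini-Hochberg adjustment over 20021 genes. A call needs both an adjusted p under 0.05 and a log2 fold change over 0.5 or under -0.5, the study's thresholds. The alternatives were DESeq2 1.42.0, limma 3.58.1, other scalings and filters, the replicate number as a block and leaving out each library. Values by library were given for members fixed by role, for paralog pairs, for the 5 highest and 5 lowest fold changes and for the 5 highest and lowest levels, and for at most 3 genes a list by adjusted p. Rpl36al was taken from the list outside the rule. Coding lengths are of the GENCODE M21 principal transcript, without the stop codon. Counting intervals would cover counting error only. Nothing in the sources says that libraries came from separate litters, so that p-values measure the spread between these libraries, which all differed by more than sampling noise. Python 3 with pandas and matplotlib 3.10.9 made the tables and figures. Some genes that the naming rules select are not reported here. The authors' own fold changes were not used.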

Additional observations from a re-analysis of the deposited data

How the results depend on the processing

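No member was called under 16 of 17 alternatives. The exception was Rps21, called without OIR-Norm replicate 1 (log2 fold change 0.53, adjusted p = 0.0257 with edgeR), so that both the number of members called and the number with an adjusted p under 0.05 ran from 0 to 1 over the left-out libraries. With DESeq2, 2 members had an adjusted p under 0.05: Rps14 (0.0223) and Rps21 (0.00309). In the other tools, scalings and filters, and with the replicate block, the lowest adjusted p of a member ran from 0.0704 to 0.0928. The members' median log2 fold change stayed above 0 throughout, with 0.138 as its lowest value when OIR-Norm replicate 2 was left out and 0.3 as its highest when OIR-Norm replicate 1 was. Members with an unadjusted p under 0.05 numbered 41 over all 6 libraries, and 11, 17 and 20 once OIR-Norm replicate 2, OIR-CIH replicate 3 or OIR-CIH replicate 1 was taken out. Of all tested genes, 2682 of 20021 stood at such a p in either direction over all 6 libraries. In the same order of left-out libraries, 1771 of 19677, 2195 of 19630 and 1718 of 19773 did. The sign turned in 4 of 510 comparisons over 30 named genes. With 1 library left out, the log2 fold change of Rpl41 ran from -0.0773 to 0.149 and was also below 0, at -0.0157, without OIR-CIH replicate 3, that of Rps27l ran from -0.161 to 0.0156, and that of Rpl5 from -5.92e-05 to 0.153. The cause was not tested. The number of all genes called was 63, 132 with DESeq2, and between 29, with OIR-CIH replicate 1 left out, and 97, with OIR-Norm replicate 3 left out. In the pathway lists, Ddit4 was the 1 gene with an adjusted p under 0.05 with DESeq2 and with the replicate block. Both groups use the numbers 1 to 3, and the sources used here do not say whether these mark pairs or batches. Deviations of same-numbered libraries from their group means correlated at 0.144, 0.126 and -0.236 over 14800 genes. Those of libraries with different numbers correlated at -0.373 to 0.212, a range that holds the same-numbered values. The share of mitochondrially encoded reads fell with the number in both groups. In replicates 1 to 3 it was 3.48%, 3.05% and 2.36% in OIR-CIH and 3.26%, 3.19% and 2.45% in OIR-Norm. A batch shared by same-numbered libraries was not tested. With the replicate block 68 genes were called, 48 of them shared with the 63, and 0 members. In that edgeR fit 54 members had an unadjusted p under 0.05, beside 41 without the block. All tested genes at such a p numbered 2591 with the block and 2682 without it, of 20021 in each fit.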
